A study of Mus musculus with 4 samples.

Results

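The mir-23, mir-27 and mir-24 miRNAs come from 6 hairpins in 2 clusters of the mouse genome, 1 holding Mir23a, Mir27a and Mir24-2 and the other holding Mir23b, Mir27b and Mir24-1. Their reads were taken from small RNA libraries of fetal liver as sequences that match 1 of these 6 of the 2202 annotated hairpins without mismatch, together with reads that match after removal of 1 to 3 nucleotides (nt) from the 3′ end. The libraries came from livers of Ago2 CD mice, whose Ago2 protein is catalytically dead, and from wildtype livers, with 2 libraries per genotype. Libraries of 1 genotype are biological replicates by the series' design text. All livers were frozen at dissection and carry no treatment in the labels, and neither the age nor the number of the fetuses is given there. The livers were whole, so fewer cells of a type and less RNA per cell cannot be told apart in any level below.

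Each hairpin is cut to a short duplex of a 5p and a 3p strand, 1 of which is kept by an Argonaute protein and pairs with target mRNAs mainly through its seed, bases 2 to 8. In these 3 families the 3p strand is the usual guide. The families are known in blood vessels and blood: miR-23 and miR-27 act in endothelial cells, miR-27 also in megakaryocytes, and miR-24 in human erythroid cells, where it lowers an activin receptor. Ago2 is the mammalian Argonaute best known for cutting RNA paired to its guide, which can also remove the passenger strand of a well-paired duplex, and the mutant lacks that cutting.

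The guide strands are shown first because the results turn on their seeds, their first 3 bases and their last bases. These are RefSeq mature sequences (build GRCm38.p6), found for 11 of the 12 arms, with the seed in capitals.
miR-23a-3p: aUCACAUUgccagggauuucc
miR-27a-3p: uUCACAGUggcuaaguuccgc
miR-27b-3p: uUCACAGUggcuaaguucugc
miR-24-3p: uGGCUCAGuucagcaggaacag
The 5p strands of mir-24 tell its loci apart, and that of mir-27b was the other 5p strand with enough reads to test.
miR-24-2-5p: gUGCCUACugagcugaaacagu
miR-24-1-5p: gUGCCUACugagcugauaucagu
miR-27b-5p: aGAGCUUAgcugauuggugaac
miR-27a-3p and miR-27b-3p share a seed and differ by C19U, counted from the 5′ end with the base of miR-27a-3p first. Over the first 8 bases, miR-23a-3p differs from miR-27a-3p by A1U and U7G, so 1 of the differences lies within the seed. The 3p strands of Mir24-1 and Mir24-2 are identical, and their 5p strands share a seed.

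The chromosome 8 cluster spans 404 bases of the plus strand (GRCm38). Mir23a lies at chr8:84208518-84208592, Mir27a at chr8:84208672-84208758 and Mir24-2 at chr8:84208815-84208921, with 79 and 56 bases between neighbours. Mir23a and Mir27a overlap no other annotated gene, and Mir24-2 overlaps an exon of the long noncoding RNA Gm26532 on its own strand and the hairpin Mir3074-2 on the other. The chromosome 13 cluster spans 792 bases, also on the plus strand. Mir23b lies at chr13:63300484-63300557, Mir27b at chr13:63300712-63300784 and Mir24-1 at chr13:63301208-63301275, with 154 and 423 bases between neighbours. This cluster lies inside the protein-coding gene 2010111I01Rik, where Mir23b is intronic and Mir27b and Mir24-1 overlap an exon of at least 1 transcript. It also lies in an intron of Fancc, a Fanconi anaemia gene on the opposite strand. Reads of Mir3074-1, the hairpin antisense to Mir24-1, numbered 82 and 40 in the Ago2 CD libraries and 33 and 61 in the wildtype libraries, and those of Mir3074-2 numbered 44 and 15 in Ago2 CD and 12 and 34 in wildtype. Matching kept the strand, so these reads did not enter the counts of mir-24.

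The libraries held 21875540 and 15238066 reads in Ago2 CD replicates 1 and 2, and 15841697 and 13138065 reads in wildtype replicates 1 and 2. The longest read was 46 nt in Ago2 CD replicate 1 and wildtype replicate 2, and 50 nt in Ago2 CD replicate 2 and wildtype replicate 1, so that each length held 1 library of each genotype. Libraries with the same longest read resembled each other across arms, and values within each pair are given below as the 46 nt and the 50 nt pair. The labels do not say what the lengths stand for. Of 583 miRNA arms, 2 passed the test for genotype, and both belong to hairpins outside the 3 families: miR-451a, whose maturation is known to need Ago2 cutting, was lower in Ago2 CD, and miR-486-3p was higher. A point mutation need not alter any miRNA, so no member checks the labels. Of 8 marker lists, summed over their arms, all but the erythroid and mesenchymal ones were ordered by read length. The hepatocyte list (6 arms) had 75387 and 35657 CPM (counts per 1000000, scaled by TMM factors) in Ago2 CD and 26207 and 58851 CPM in wildtype, and the neuronal list (3 arms) 315 and 16.5 CPM against 13.1 and 269 CPM. The erythroid list (6 arms, miR-451a and miR-486 among them) was lower in both Ago2 CD libraries, at 248473 and 332653 CPM against 1123718 and 585610 CPM in wildtype, where TMM scaling lets a sum pass 1000000. The mesenchymal list (8 arms) was also lower, at 3606 and 3322 CPM in Ago2 CD and 4058 and 3853 CPM in wildtype. The myeloid and lymphoid list (5 arms) had 70851 and 60301 CPM in Ago2 CD and 70544 and 71099 CPM in wildtype, lower in the 50 nt libraries. The part of these lists in the members' levels was not tested. The muscle list (3 arms) was at 707 CPM in wildtype replicate 1 and between 13.3 and 34.7 CPM in the other libraries. Both of its 50 nt values lay above both of its 46 nt values.

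The 6 hairpins held 167635 and 109793 reads in Ago2 CD libraries, and 66077 and 72938 reads in wildtype libraries, tailed reads included. These were 1.01% and 1.07% of all hairpin reads in Ago2 CD, against 0.540% and 0.700% in wildtype. The denominator of that share holds the reads of miR-451a, which fell in Ago2 CD, and the CPM values below use a scale that does not follow a few abundant miRNAs. None of the member reads matched a hairpin outside the 6, none was longer than 27 nt before its tail, and none lay between the arms in the loop, where a count of 0 allows up to 3 reads per library. Nearly all reads were guide strands. By mean CPM over the libraries, miR-27-3p of both loci together stood 25th among the 583 arms, miR-23-3p stood 56th and miR-24-3p stood 90th. The 5p arms stood far lower, miR-24-2-5p at 275th, miR-24-1-5p at 397th and miR-27b-5p at 541st.

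None of the 6 member arms tested passed the threshold for genotype (edgeR quasi-likelihood test, Benjamini-Hochberg adjusted p under 0.05), where 0.343% of all 583 arms did. Each had an adjusted p of 0.998, and none had an unadjusted p under 0.05, where 2.92% of all arms did. In 1 of the 6, miR-24-2-5p, both Ago2 CD libraries lay beyond both wildtype libraries, where 29.7% of all arms had groups that did not overlap. The other 3 arms had too few reads for the low-count filter. miR-23a-5p had 8 and 4 reads in Ago2 CD and 2 and 4 in wildtype, miR-23b-5p had 3 and 4 in Ago2 CD and 0 and 4 in wildtype, and miR-27a-5p had a single read, in wildtype replicate 1. With 2 libraries per genotype an adjusted p that misses the threshold does not show equal levels.

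miR-27-3p, the most abundant of the guides, had 3552 and 6859 CPM in Ago2 CD and 6016 and 2981 CPM in wildtype. The high libraries were the 50 nt ones of both genotypes, and the groups overlapped widely. The log2 fold change was 0.21 (SE 0.53), with 0.25 within the 46 nt pair and 0.19 within the 50 nt pair. The endothelial miRNA miR-126a had 6238 and 7519 CPM summed over its arms in Ago2 CD and 8263 and 6188 CPM in wildtype. It was likewise higher in both 50 nt libraries, as was the muscle list. For muscle that order was narrow, with 34.7 CPM in Ago2 CD replicate 2 and 31.2 CPM in wildtype replicate 2. The hepatocyte, epithelial, neuronal, and myeloid and lymphoid lists were lower in both 50 nt libraries. The part of any list in the miR-27 values was not tested.

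miR-23-3p had 2058 and 1705 CPM in Ago2 CD and 1820 and 2102 CPM in wildtype, with the lower values in the 50 nt libraries. Its log2 fold change was -0.06 (SE 0.28). That order was gone when reads from 16 nt were counted, with 2133 and 2049 CPM in Ago2 CD and 2230 and 2146 CPM in wildtype, since many miR-23 reads of the 50 nt files are shorter than 18 nt. Both mutant values then lay just below both wildtype values (log2 fold change -0.07, adjusted p = 0.999 in edgeR). Among reads of 18 to 27 nt, 29.7% of all arms had groups that did not overlap. That share was not counted from 16 nt. miR-24-3p had 786 and 542 CPM in Ago2 CD and 671 and 917 CPM in wildtype, lower in the 50 nt libraries, with a log2 fold change of -0.26 (SE 0.34). Within the pairs it was -0.22 (46 nt) and -0.31 (50 nt). Among reads of 18 to 27 nt the guides did not keep 1 ratio across libraries: miR-27-3p exceeded miR-23-3p by 1.73 and 4.02 times in Ago2 CD and by 3.31 and 1.42 times in wildtype.

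Among the 5p strands, miR-24-2-5p was at 26.1 and 21.1 CPM in Ago2 CD and 29.7 and 46.1 CPM in wildtype, lower in both mutant libraries than in either wildtype library. The log2 fold change was -0.68 (SE 0.40), with -0.81 in the 46 nt pair and -0.48 in the 50 nt pair. miR-24-1-5p was at 7.38 and 2.21 CPM in Ago2 CD and 6.03 and 10.2 CPM in wildtype, where the groups overlapped, with a log2 fold change of -0.74 (SE 0.71). It ran between -1.86 without Ago2 CD replicate 1 and -0.13 without Ago2 CD replicate 2, and that of miR-24-2-5p between -0.92 without wildtype replicate 1 and -0.29 without wildtype replicate 2. Both 5p strands of mir-24 were lower in Ago2 CD within each pair, miR-24-1-5p with log2 values of -0.45 (46 nt) and -1.38 (50 nt). With read length as a term of the model, both had an unadjusted p under 0.05 and neither passed after adjustment (adjusted p = 0.160 for miR-24-2-5p and 0.176 for miR-24-1-5p, edgeR). In that model 24.2% of all arms had an unadjusted p under 0.05, and 1.72% were called. The share of all arms that were lower in Ago2 CD within each pair was not counted. miR-27b-5p, at 1.05 and 1.68 CPM in Ago2 CD and 1.51 and 1.13 CPM in wildtype, showed a log2 fold change of 0.04 (SE 0.51).

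**Figure D1:**
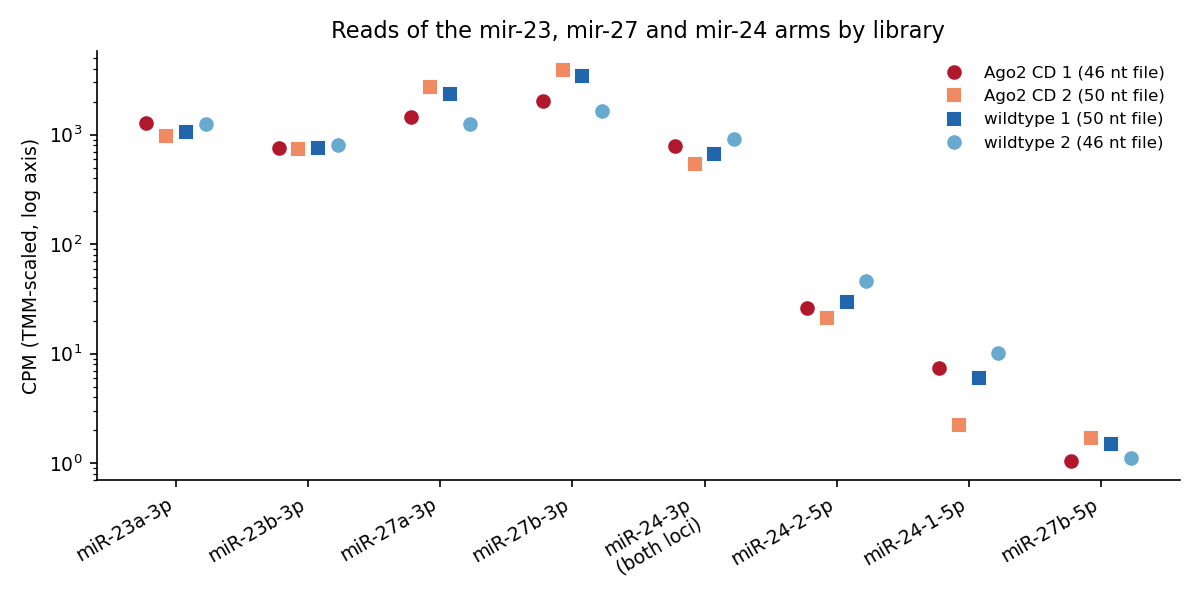
Level of each member arm in each library, in TMM-scaled CPM on a log axis, with Ago2 CD libraries left of wildtype libraries and the shape giving the longest read of the file (circles 46 nt, squares 50 nt). Both squares lie above both circles for miR-27a-3p and miR-27b-3p, and both Ago2 CD points lie below both wildtype points for miR-24-2-5p.

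The scale set the sign for the guides of miR-23 and miR-24. With all reads on arms as the library size, the median of all arms was 0.74 on the log2 scale instead of 0.04, and miR-23-3p and miR-24-3p were then at 0.64 and 0.43, above 0 but below that median. The 5p strands miR-24-2-5p and miR-24-1-5p were at -0.02 and -0.06 on that scale, still below 0 and farther below the median of all arms than the guides. miR-27-3p was at 1.01 and miR-27b-5p at 0.78 on that scale, both above its median, with adjusted p of 0.466 and 0.533 (edgeR). The arms outside the 3 families whose profile over the 4 libraries lay nearest to the mean of the 3 guides were miR-125a-5p, miR-484-5p and miR-376c-3p, among 200 arms with a mean of at least 100 CPM. Their root mean square distances were 0.04, 0.07 and 0.07 on the log2 scale. The guides themselves lay farther from that mean, at 0.16 for miR-23-3p, 0.47 for miR-27-3p and 0.31 for miR-24-3p, so the mean profile describes none of them closely.

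Reads that match 1 locus only were then counted apart, since the a and b forms can be told apart at their 3′ ends. None of the 10 member features tested passed the threshold, where 0% of 698 features did with the same test (2.87%, or 20, had an unadjusted p under 0.05, none of them a member). DESeq2 called 3 of all features and no member, and with read length in the model edgeR called 6.02% of features and no member. The adjusted p of each member was 0.999 in edgeR, and 2 of the 10, miR-23b-3p and miR-24-2-5p, had both Ago2 CD libraries below both wildtype libraries, where 27.8% of all features had groups that did not overlap. miR-23a-3p had 1277 and 972 CPM in Ago2 CD and 1069 and 1245 CPM in wildtype. miR-23b-3p had 750 and 742 CPM in Ago2 CD and 750 and 810 CPM in wildtype, a narrow range in which 1 mutant and 1 wildtype library nearly coincided (log2 fold change -0.06, SE 0.23). miR-27a-3p had 1458 and 2752 CPM in Ago2 CD and 2346 and 1250 CPM in wildtype. miR-27b-3p had 2027 and 3877 CPM in Ago2 CD and 3447 and 1657 CPM in wildtype. Both forms of miR-27 were thus higher in the 50 nt libraries, from either chromosome. miR-23a-3p was lower there and miR-23b-3p had no such order, but with reads from 16 nt miR-23a-3p had 1325 and 1208 CPM in Ago2 CD and 1356 and 1277 CPM in wildtype, no longer split by read length, and miR-23b-3p had 765 and 840 CPM in Ago2 CD and 889 and 811 CPM in wildtype, higher in the 50 nt libraries.

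The balance of the loci was put in numbers as the share of the chromosome 8 cluster among untailed reads that match 1 locus. Intervals in brackets are exact 95% Clopper-Pearson intervals, which cover counting error only. For miR-23-3p, Mir23a gave 63.0% (62.5 to 63.5) and 56.7% (56.0 to 57.5) in Ago2 CD and 58.8% (57.8 to 59.7) and 60.6% (59.9 to 61.3) in wildtype. The chromosome 8 locus was the larger source in every library, the wildtype values lay between the mutant ones, and the means were 59.9% ± 4.4 in Ago2 CD and 59.7% ± 1.3 in wildtype (SD, n = 2 each, two-sided exact permutation p = 1). For miR-27-3p, Mir27a gave 41.8% (41.5 to 42.2) and 41.5% (41.1 to 41.9) in Ago2 CD and 40.5% (39.98 to 41.0) and 42.999% (42.4 to 43.6) in wildtype. Here the chromosome 13 locus was the larger source in every library, with means of 41.7% ± 0.22 in Ago2 CD and 41.7% ± 1.8 in wildtype (SD, n = 2 each, two-sided exact permutation p = 1). An exact test of 2 libraries against 2 cannot go below 0.333.

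The guides of mir-24 cannot be told apart, so only the 5p strands of its loci were compared. Mir24-2 gave 78.0% (74.7 to 81.1) and 90.5% (85.9 to 94.0) of these reads in Ago2 CD, from 668 and 222 reads. In wildtype it gave 83.1% (77.4 to 87.9) and 81.9% (78.3 to 85.2), from 213 and 498 reads. Mir24-2 led among these 5p reads in each library, and the mutant libraries stood on either side of the wildtype ones (two-sided exact permutation p = 1, n = 2 each). For mir-27 nearly all 5p reads came from the other cluster. miR-27b-5p had 21 and 16 reads in Ago2 CD and 9 and 10 in wildtype. miR-27a-5p had 0 and 0 reads in Ago2 CD and 1 and 0 in wildtype. Among guide reads of miR-27, however, Mir27a gave 41.8% and 41.5% in Ago2 CD and 40.5% and 42.999% in wildtype. The 5p shares of mir-24 thus need not give the loci of its guide.

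**Figure D2:**
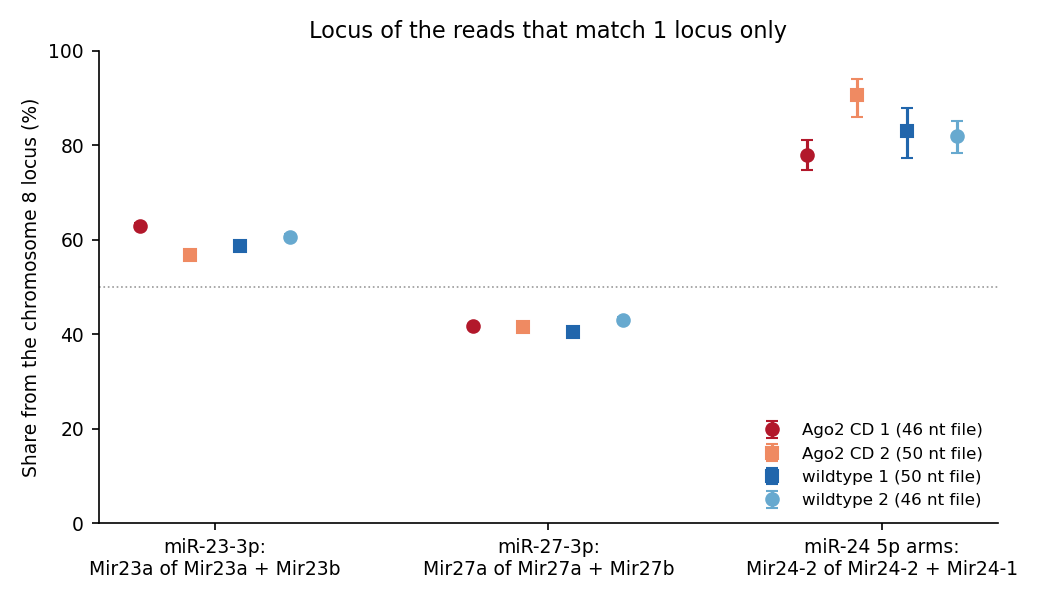
Share of the chromosome 8 locus, in percent, among untailed reads that match 1 locus only, for each library, with Ago2 CD left of wildtype. Bars are exact 95% intervals of counting error, and the dotted line marks 50%. For mir-24 the 5p arms are shown, which need not give the loci of its guide. Mir23a lies above the line and Mir27a below it in all 4 libraries, and the widest intervals belong to the 5p arms of mir-24.

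The 5′ ends of the miR-23 guides split the libraries by read length and not by genotype. Of miR-23a-3p reads of 18 to 27 nt, 91.2% (90.8 to 91.5) and 0.0109% (0.000275 to 0.0606) began at base 1 of the mature sequence in Ago2 CD replicates 1 and 2, against 0.0157% (0.000397 to 0.0873) and 90.8% (90.3 to 91.4) in wildtype replicates 1 and 2. In the 50 nt libraries this was 1 read of 9197 in Ago2 CD and 1 of 6379 in wildtype. There the reads began at base 4 instead: 1.23% and 88.8% of reads did so in Ago2 CD, against 88.7% and 1.39% in wildtype. The reads that carry this are shown as they stand in the files, with the bases of the seed in capitals.
22 nt read of miR-23a-3p: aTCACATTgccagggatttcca
21 nt read of miR-23a-3p: aTCACATTgccagggatttcc
18 nt read of miR-23a-3p: ACATTgccagggatttcc
The 22 nt read was counted 8995 and 0 times in Ago2 CD and 0 and 3700 times in wildtype. The 18 nt read, which lacks the first 3 bases and with them the start of the seed, was counted 147 and 4685 times in Ago2 CD and 3588 and 67 times in wildtype. miR-23b-3p had the same pattern, with 91.9% and 0.0285% at base 1 in Ago2 CD and 0.0223% and 91.3% in wildtype.

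The other guides did not lose their first bases. At base 1 began 94.4% and 94.6% of miR-27a-3p reads in Ago2 CD and 96.7% and 94.3% in wildtype, 94.7% and 95.5% of miR-27b-3p reads in Ago2 CD and 97.1% and 94.4% in wildtype, and 95.4% and 96.6% of miR-24-3p reads in Ago2 CD and 97.4% and 95.7% in wildtype. Over all guides, those of miR-23 included, no 95% interval of a share at base 1 or base 4 was wider than 1.97 percentage points. The missing bases of miR-23 are ATC as DNA, and in the files as a whole reads that begin with ATC made up 2.53% and 0.0111% of reads in Ago2 CD, against 0.00660% and 1.86% in wildtype. Of the hairpins outside the 6, 18 have a mature sequence that begins with AUC, and 6 of these had at least 10 reads. Of their reads at base 1 or 4, 98.8% and 0.0715% stood at base 1 in Ago2 CD, and 0.104% and 98.9% in wildtype. The loss in the 50 nt files thus touched reads beginning with these 3 bases in general. The part of adapter removal in it was not tested.

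**Figure D3:**
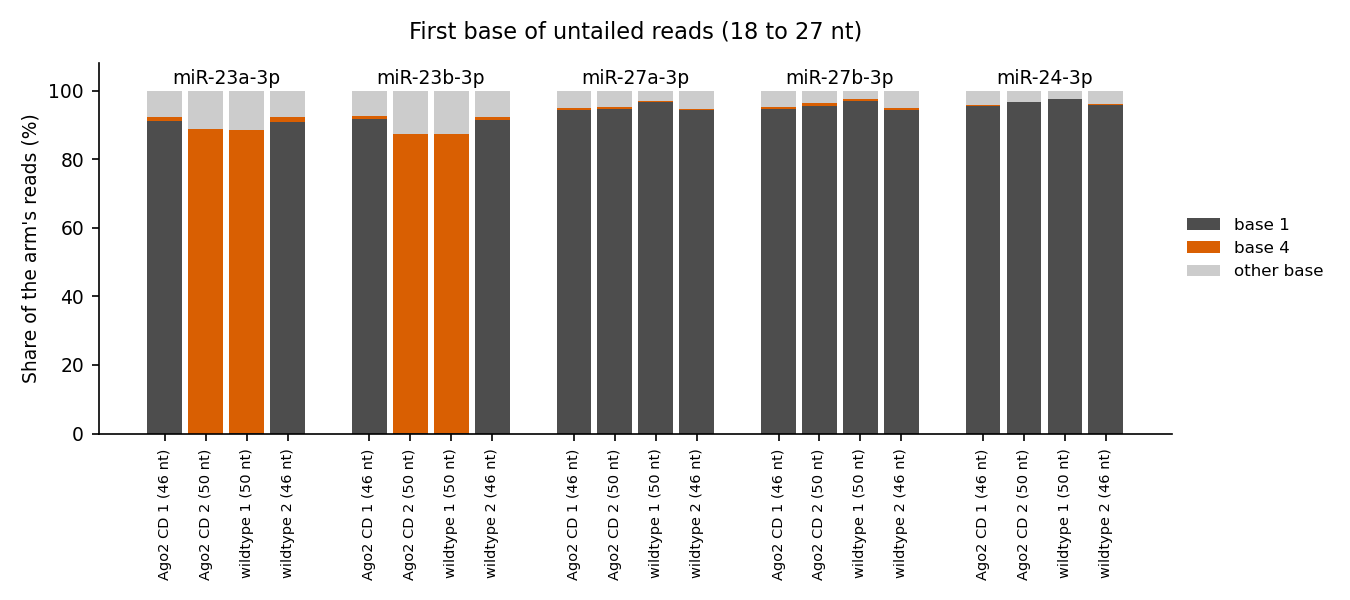
First base of untailed reads of 18 to 27 nt for the 5 guide strands, as shares of the arm's reads in percent, in each library (Ago2 CD left of wildtype; base 1 is the first base of the mature sequence). Base 4 (orange) holds over 87% of miR-23 reads in both 50 nt libraries and under 2% in both 46 nt libraries, while the miR-27 and miR-24 guides begin at base 1 throughout.

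The shortened reads bear on counting, since a read of 18 nt is the shortest that counts for an arm. Reads of 16 and 17 nt on the 6 hairpins numbered 6220 and 5288 in Ago2 CD and 3480 and 2712 in wildtype. With reads from 16 nt counted, Mir23a gave 63.4% and 59.0% of miR-23-3p reads in Ago2 CD, and 60.4% and 61.2% in wildtype. With reads of 20 to 24 nt alone, it gave 63.0% and 41.3% in Ago2 CD, and 44.4% and 60.4% in wildtype, so the leading locus turned over in the 50 nt libraries, where such a window leaves out most shortened reads. The share of Mir27a was nearly the same under that window, at 41.4% and 41.1% in Ago2 CD and 40.2% and 42.3% in wildtype.

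The 3′ ends differed by read length as well. The most frequent length of untailed miR-24-3p reads was 22 nt in both 46 nt libraries and 20 nt in both 50 nt libraries.
22 nt read of miR-24-3p: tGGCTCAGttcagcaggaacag
20 nt read of miR-24-3p: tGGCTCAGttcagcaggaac
The 22 nt read was counted 10705 and 1929 times in Ago2 CD and 1421 and 5367 times in wildtype, and the 20 nt read 2197 and 2358 times in Ago2 CD and 1948 and 1314 times in wildtype. miR-27 kept 1 length throughout.
21 nt read of miR-27a-3p: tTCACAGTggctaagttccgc
21 nt read of miR-27b-3p: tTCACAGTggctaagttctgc
Of untailed miR-27a-3p reads, 62.3% and 79.6% were 21 nt long in Ago2 CD and 78.9% and 62.7% in wildtype, higher in the 50 nt libraries. The shares for miR-27b-3p were 68.4% and 76.2% in Ago2 CD and 75.9% and 69.0% in wildtype.

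**Figure D4:**
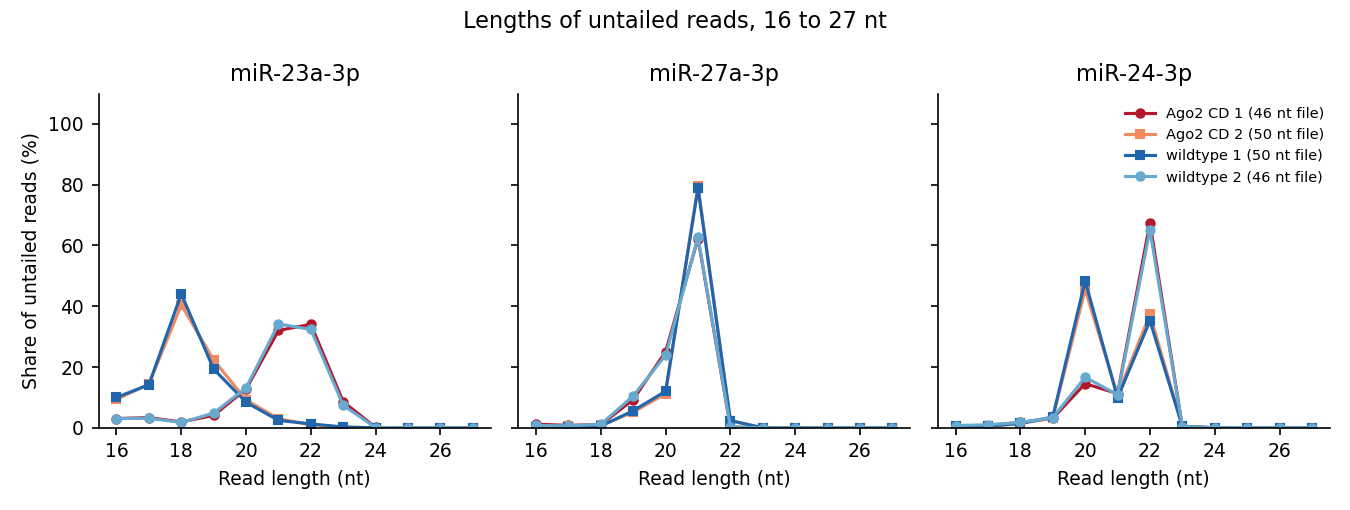
Length of untailed reads of 16 to 27 nt for miR-23a-3p, miR-27a-3p and miR-24-3p, as the share of the arm's reads in percent, 1 line per library (circles 46 nt files, squares 50 nt files). Lines of the same file length lie together: miR-23a-3p peaks at 18 nt in 50 nt files, and miR-24-3p peaks at 20 nt in 50 nt files and at 22 nt in 46 nt files.

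The balance of the strands was compared in untailed reads because Ago2 can cut passenger strands. None of the 3 families passed the test of the 3p to 5p ratio, where 0.881% of 227 hairpins did (limma on log2 ratios with a pseudocount of 0.5; 3.52% had an unadjusted p under 0.05). In mir-24, RNAfold paired 17 of 22 guide bases of Mir24-2 and 18 of 22 of Mir24-1. The 5p strand made up 4.09% (3.79 to 4.41) and 4.13% (3.61 to 4.70) of untailed mir-24 reads in Ago2 CD, and 5.05% (4.41 to 5.75) and 5.78% (5.30 to 6.30) in wildtype. Both mutant values lay below both wildtype values, and so within the 46 nt and the 50 nt pair, with means of 4.11% ± 0.027 in Ago2 CD and 5.41% ± 0.52 in wildtype (SD, n = 2 each). The two-sided exact permutation p was 0.333, the smallest this design allows, and on the log2 scale 3p over 5p changed by 0.41 (SE 0.50, adjusted p = 0.999 in limma). With tailed reads counted, which are frequent on the guide, it changed by 0.31 (SE 0.44, adjusted p = 0.988 in limma). The share of all 227 hairpins whose groups did not overlap was not counted. For levels it was 29.7% of all arms. In mir-27, where RNAfold paired 21 of 21 guide bases of Mir27b and 20 of 21 of Mir27a, the 5p strand made up 0.0297% and 0.0245% of reads in Ago2 CD and 0.0278% and 0.0379% in wildtype, with overlapping groups (log2 change 0.30, SE 0.52). In mir-23, with 18 of 21 guide bases paired in each hairpin, it made up 0.0268% and 0.0493% in Ago2 CD and 0.0184% and 0.0430% in wildtype (log2 change -0.24, SE 0.65). These last shares rest on 2 to 21 reads of a 5p strand per library.

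Tails, nucleotides at the 3′ end that the hairpin does not encode, were most frequent on miR-24-3p. Terminal transferases that add U or A are known to act on miRNAs held by an Argonaute. Of miR-24-3p reads, 36.2% (35.6 to 36.8) and 43.8% (42.8 to 44.8) carried 1 to 3 such nucleotides in Ago2 CD, and 39.9% (38.8 to 41.1) and 40.9% (40.1 to 41.7) in wildtype. Most were U: tails of U alone stood on 26.96% and 27.1% of reads in Ago2 CD, and 26.8% and 31.1% in wildtype. Tails of C alone stood on 0.155% and 9.65% in Ago2 CD, and 6.35% and 0.182% in wildtype, above 1% in the 50 nt files alone. The mutant libraries lay on either side of the wildtype ones for all tails together.

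Tails on the miR-23 and miR-27 guides also ordered by read length. miR-23a-3p was tailed in 14.1% and 20.6% of reads in Ago2 CD and 19.0% and 12.8% in wildtype, and miR-23b-3p in 23.1% and 26.6% in Ago2 CD and 28.3% and 24.8% in wildtype, higher in the 50 nt libraries for both forms. miR-27a-3p had the opposite order, at 24.9% and 15.1% in Ago2 CD and 18.6% and 27.9% in wildtype. So did miR-27b-3p, at 13.02% and 9.85% in Ago2 CD and 10.4% and 15.03% in wildtype. Within each library miR-27a-3p was tailed more often than miR-27b-3p, the form that differs from it by C19U, and miR-23b-3p more often than miR-23a-3p. U alone was the most frequent tail on each of the 5 guides in each library. A tail cannot be told from a mismatch in the last 3 bases of a read. An added base that equals the next base of the hairpin counts as untailed, and that base can differ between the a and b hairpins. In Ago2 CD replicate 1, untailed reads of 22 nt numbered 1812 for miR-27b-3p and 79 for miR-27a-3p. The part of this in the order of the a and b forms was not tested.

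None of the 4 member arms with at least 200 reads in each library passed the test of the tailed to untailed ratio, where 0% of 277 arms did (limma; 0 had an unadjusted p under 0.05). With read length as a term of the model, 0.722% of arms were called, 2 in all, and 1 of these was miR-24-2-5p (log2 change 0.86, SE 0.21, limma adjusted p = 0.00615). It was tailed in 3.34% and 22.4% of reads in Ago2 CD, 18 of 539 and 58 of 259 reads. In wildtype it was tailed in 12.8% and 1.92%, 26 of 203 and 8 of 416 reads. The groups overlapped, and the mutant was higher within each pair. Tails of C alone made up 0 and 55 of these reads in Ago2 CD and 22 and 1 in wildtype, so the reads behind the 50 nt pair were C tails. That model gave each arm the same SE, a single spread shared by all arms. Without that term the arm had an adjusted p of 0.999, and leaving out Ago2 CD replicate 2 or wildtype replicate 2 gave log2 changes of -0.65 and -0.56.

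**Figure D5:**
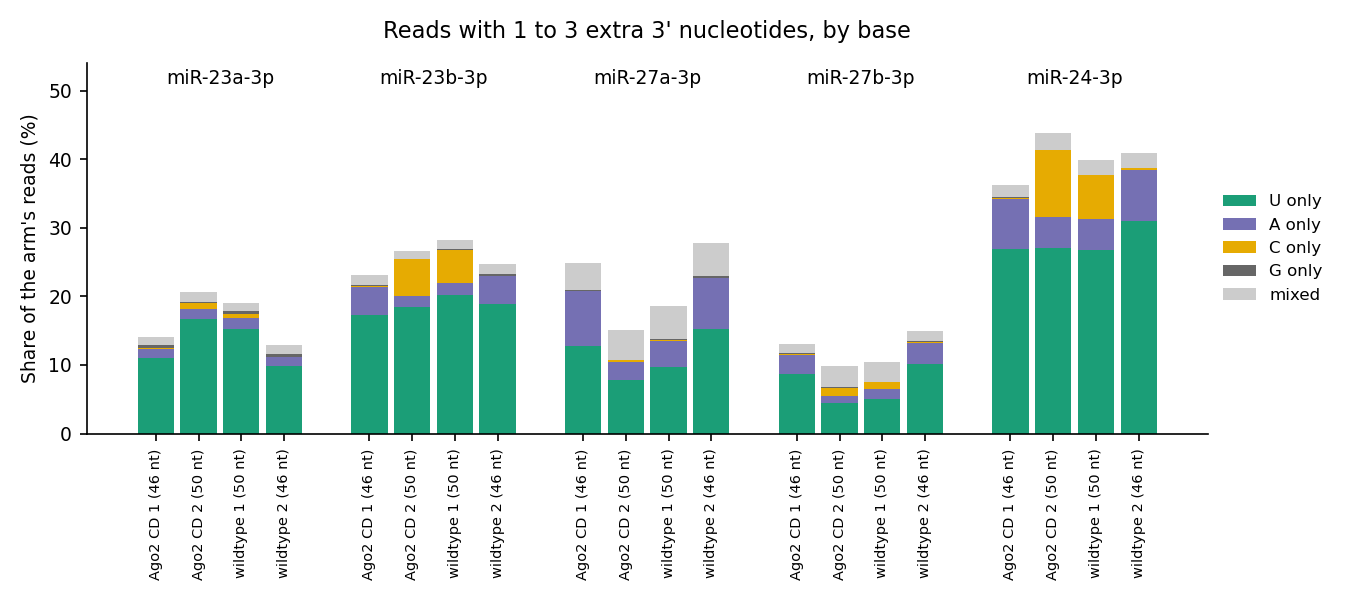
Share of reads with 1 to 3 added 3′ nucleotides, in percent of the arm's reads, for the 5 guide strands in each library (Ago2 CD left of wildtype), divided by the added base. U tails (green) lead in each bar, and C tails (yellow) stand out in the 50 nt libraries, up to 9.65% on miR-24-3p.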

How the data were processed

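Per the labels' protocols, total RNA of frozen fetal livers was extracted with Trizol and made into libraries with a modified TruSeq small RNA protocol. The authors deposited read counts, the number of reads of each distinct sequence, with no normalization. The submitters' processing notes name cutadapt, without a version, and no trimming setting, aligner or build is named (not given in the sources used here). Repeated sequences were summed, and sequences with an N, holding 0.183% to 0.256% of reads, were not matched.

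Reads were matched on the sense strand to the 2202 hairpins of GENCODE vM21 (GRCm38). A read was given to the 5p or 3p arm by whether its middle lay before or after that of the hairpin. Levels, arm ratios and locus shares counted untailed reads of 18 to 27 nt. Tailed reads entered the tail shares and 1 alternative read definition. Arms with the same first 18 nt were merged for 1 analysis and kept apart by the set of loci matched in the other. First bases are those of RefSeq or, for miR-23b-3p, the most frequent start. Depth is given as reads per library and per arm, and shares carry exact Clopper-Pearson intervals at 95% of counting error only, since reads carried no molecular identifiers.

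Ago2 CD was compared with wildtype in R 4.3.3 with edgeR 4.0.16 (glmQLFit, glmQLFTest, TMM, filterByExpr), two-sided, with Benjamini-Hochberg adjustment over all features tested. Fold changes are log2 of Ago2 CD over wildtype. limma 3.58.1 tested the 3p to 5p ratio (at least 20 reads per library, 10 on the minor arm over all libraries) and the tailed to untailed ratio (at least 200 reads per library), both on log2 values with a pseudocount of 0.5. Single shares had exact permutation tests. The functions were tested on simulated data. RNAfold 2.7.2, Python 3.11.15, SciPy 1.17.1, NumPy 2.4.6 and matplotlib 3.10.9 were also used. Alternatives were DESeq2 1.42.0 as test or scaling, other library sizes, no low-count filter, other read definitions and pseudocounts, higher minimums, the replicate number as a block, read length in the model, and leaving out each library. Counting from 16 nt was chosen after seeing the data.

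The text names all arms of the 6 hairpins, the 3 other arms nearest in profile and the marker lists. The members, lists and tests were chosen with earlier results of these data known.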

Additional observations from a re-analysis of the deposited data

How the results depend on the processing

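No member arm, feature or family passed the threshold for genotype under any alternative run for levels and arm ratio. For tails, 1 of 4 did under 1 alternative, miR-24-2-5p, when read length was a term. The counts over all arms moved more. Arms past the threshold numbered 2, and 1 with the library size taken without miR-451a and miR-486, 11 without the filter on low counts, 1 with reads of 20 to 24 nt, 10 with read length in the model, and 0 to 4 with each library left out. Locus-resolved features past it numbered 0, and 3 with DESeq2, 1 with reads on arms as library size, 1 without miR-451a and miR-486 in the library size, 14 without the filter and 42 with read length. The numbers tested differed between runs. DESeq2 and the run without the filter each tested 1479 arms and 2447 features, against 583 and 698 in the main run. Hairpins with a called arm ratio numbered 2, and 0 to 2 with each library left out. Arms with a called tailed share numbered 0, and 2 with read length in the model. In none of these cases was the cause tested.

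The sign of uncalled log2 changes turned in 43 of 285 alternatives, run over 23 member values. With reads on arms as library size, the values were 0.64 for miR-23-3p, 0.43 for miR-24-3p, 0.65 for miR-23a-3p, 0.63 for miR-23b-3p, 0.43 for locus-resolved miR-24-3p and 0.43 for miR-23 reads shared by both loci. Without the low-count filter, miR-23-3p was at 0.0030 and miR-23a-3p at 0.013. DESeq2 gave 0.021 for miR-23a-3p and 0.032 for shared miR-23 reads, and reads of 20 to 24 nt gave 0.029 for miR-23a-3p. miR-27b-5p was at -0.11 and, locus-resolved, at -0.10 without miR-451a and miR-486 in the library size. On the scale of reads on arms, miR-27-3p kept its sign at 1.01. A pseudocount of 5 gave 0.26 for the arm ratio of mir-23.

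Leaving out each library moved the log2 fold change over these ranges: miR-23-3p -0.19 to 0.083, miR-24-3p -0.54 to 0.019, miR-27-3p -0.32 to 0.83, miR-27b-5p -0.29 to 0.37, miR-24-1-5p -1.86 to -0.13, miR-24-2-5p -0.92 to -0.29, the last 2 with no change of sign. Locus-resolved, the ranges were -0.25 to 0.14 for miR-23a-3p, -6.27 to 4.04 for shared miR-23 reads, -0.31 to 0.79 for miR-27a-3p, -1.04 to 1.60 for shared miR-27 reads, -0.34 to 0.87 for miR-27b-3p and -0.31 to 0.37 for miR-27b-5p. The arm ratio of mir-23 ran over -0.74 to 0.25. The tailed to untailed ratio ran over -0.27 to 0.25 for miR-23-3p, -0.26 to 0.20 for miR-24-3p, -0.65 to 2.38 for miR-24-2-5p and -0.61 to 0.13 for miR-27-3p. A library left alone in its genotype is assumed to vary like the other genotype.

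The replicate numbers do not pair the samples: deviations of same-numbered libraries correlated at -0.72 over 583 arms. With the replicate block, 2 arms, 0 locus-resolved features, 2 arm ratios and 0 tailed shares were called. The crossed pairing, considered after seeing the data, is the same model as the planned one with read length and called 10 arms and 42 locus-resolved features. Depth limits the 5p strands most, at 2 to 21 reads per library for mir-23 and mir-27. With 2 libraries per genotype, and a spread within genotypes that follows read length, the SE of the guides was 0.28 to 0.53 on the log2 scale.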
